A study of Mus musculus with 36 samples.

Results

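The 35 genes described here code for glucose and lactate transporters, the enzymes of glycolysis, the factor HIF-1 that drives the transcriptional response to low oxygen, and targets of that factor. They were chosen by gene symbol, from a named list, out of 53465 genes in the deposited tables, and all 35 symbols were found. Of these, 34 had enough counts to be tested, among 16988 genes tested in all. P4ha2 was not tested, since it was at 0 counts in most libraries. RNA was sequenced from RAW 264.7, a transformed macrophage-like mouse cell line labelled as wild type, which is 1 established line and not tissue macrophages. The groups were LPS with melatonin at 0.1, 1, 10, 100 and 1000 µM, melatonin alone at the same 5 doses, LPS alone, and solvent alone, with 3 libraries in each of 12 groups. LPS (lipopolysaccharide, a bacterial cell wall product that macrophages sense) was given at 10 µg/mL, with melatonin 30 min ahead of it where both were used, and treatment lasted 12 h. The labels do not say whether replicates were independent cultures, so p-values reflect only how these libraries scatter, and that scatter may be technical.

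Glycolysis splits glucose into pyruvate, and cells that turn much of that pyruvate into lactate export it through monocarboxylate transporters. HIF-1 pairs an oxygen-labile alpha subunit with a stable partner. Prolyl hydroxylases of the Egln family mark the alpha subunit for destruction when oxygen is present, and the stable complex binds short elements in promoters of glycolytic and hypoxia genes. In macrophages activated through Toll-like receptors, HIF-1 and glycolysis are known to increase also when oxygen is not limiting.

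Libraries held 4203313 to 7590271 counts (median 6649254.5). A count of 3 corresponds to 0.388 to 0.599 CPM (counts scaled to a common library size, after TMM normalization), the highest level that a count of 0 allows, for counting error only. Of 10 macrophage markers 9 averaged above 1 CPM (summed level 3355 to 16051 CPM per library, lowest in LPS with 1 mM melatonin), with Mrc1 below it, while all fibroblast, T cell, B cell, epithelial and endothelial markers averaged below 1 CPM (summed level 0 to at most 9.96 CPM), and Krt18 was at 0. Pseudogenes took 26.8% of all counts, which touches several members below. In this bulk RNA, fewer cells with a transcript and less of it per cell cannot be told apart.

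Across all genes, 3 libraries stood apart from their groups. Replicate 3 of LPS with 1 mM melatonin had the fewest counts and the highest scaling factor (1.19). The other 2 were found with 271 genes that were not called for LPS against solvent. These genes were called, and differed at least 2-fold, between the LPS groups with the highest and the lowest melatonin dose. Over these genes, the slope through the origin of a library's log2(CPM + 1), taken relative to solvent, on that difference was 15.4% in replicate 1 of 1 µM melatonin alone, beside -1.56% in replicate 2 and -0.298% in replicate 3. In the group given 1 mM melatonin alone the slope was 13.4% in replicate 1, 10.2% in replicate 2 and 3.82% in replicate 3. Replicate 1 of 1 µM and replicate 3 of 1 mM melatonin alone thus each stood apart from the other 2 of their groups, and are called doubted below. Replicate 1 of 1 µM lay above all libraries of 1 mM melatonin alone, and replicate 3 of 1 mM about as low as the lowest of 10 and 100 µM alone. An exchange of their labels would change what the values for 1 µM and 1 mM melatonin alone mean, and was not tested. All libraries kept their labels. Calls of single members that use either group are given with and without these libraries.

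LPS against solvent moved the members in both directions. Of the 34 tested, 7 rose and 4 fell at an adjusted p under 0.05 (edgeR's quasi-likelihood test with Benjamini-Hochberg adjustment over all genes tested, as for every adjusted p of a gene below), where 16.5% of all genes were called, 8.4% higher and 8.09% lower. The members that rose were the glucose transporter Slc2a1, the hexokinases Hk2 and Hk3, Pgk1, the lactate transporter Slc16a3, and the targets P4ha1 and Ero1l. Those that fell were Gpi1, Aldoc, Pdk1 and the oxygen sensor Egln1. The median log2 fold change of the members was -0.03, also with the 2 genes that were at 0 in LPS set to their bound, beside -0.02 for all genes tested.

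LPS with 1 mM melatonin against LPS moved members in 1 direction. In this comparison 7 of 34 fell and 0 rose, where 7.55% of all genes were called, 4.71% lower and 2.84% higher. The members that fell were Slc2a1, Hk2, Pfkp, Eno1, Slc16a3, Ero1l and Ndrg1. The median log2 fold change of the members was -0.24, beside 0.02 for all genes tested, and 12 of 34 lay above 0. Both comparisons use the same LPS libraries, so values there enter both with opposite sign, and calls in opposite directions in the 2 comparisons are not independent. Macrophage markers moved in the same comparison. Of the 10, 6 fell (Lyz2 1388 ± 73.0 CPM with LPS and 1 mM melatonin and 8250.5 ± 159 CPM with LPS, Cd14, Itgam, Fcgr1, Adgre1 and Ptprc), 0 rose, and Spi1, Cd68, Csf1r and Mrc1 were not called. Their summed level was 3355 to 4491 CPM with LPS and 1 mM melatonin and 13185 to 13364 CPM with LPS. Low sums were also seen without LPS, with a wide spread. They were 4969 to 11823.5 CPM in 1 mM and 4605 to 13015 CPM in 1 µM melatonin alone, the groups with the doubted libraries, against 12752 to 13451 CPM in solvent. Against solvent, LPS called Cd14, Adgre1 and Ptprc higher and Csf1r lower. The part of these markers in the members' changes was not tested.

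**Figure D1:**
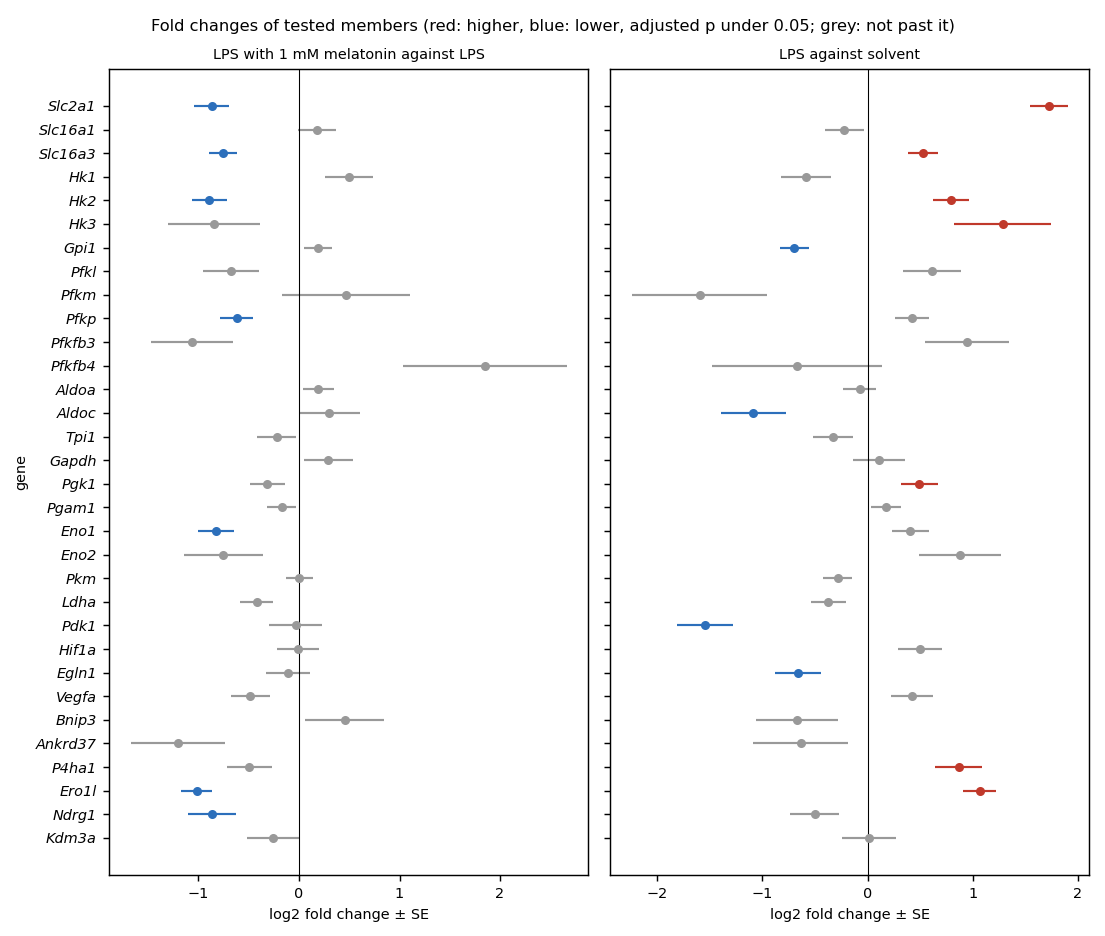
Log2 fold changes (points, x axes) with their standard errors (lines) of 32 tested members (y axis) for LPS with 1 mM melatonin against LPS on the left and LPS against solvent on the right. Red marks members called higher and blue members called lower at an adjusted p under 0.05. Egln3 and Adm, at 0 in LPS, are left out. Slc2a1, Hk2, Slc16a3 and Ero1l are blue on the left and red on the right, while Gpi1, Pdk1 and Egln1 are blue on the right and lie between -0.11 and 0.19 on the left.

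The promoters of the 4 genes called in both comparisons are shown because each holds the core of the hypoxia response element, the short sequence that HIF-1 binds. They are followed by those of Pdk1 and Egln1, which also hold it but fell with LPS. Each is a RefSeq window on GRCm38.p6, the build also known as mm10, of 300 bases from 250 before to 50 after an annotated start, written 5′ to 3′ on the strand of the gene. Capitals mark every ACGTG or GCGTG and, for the other strand, every CACGT or CACGC.
Slc2a1, chr4:119108495-119108794, plus strand: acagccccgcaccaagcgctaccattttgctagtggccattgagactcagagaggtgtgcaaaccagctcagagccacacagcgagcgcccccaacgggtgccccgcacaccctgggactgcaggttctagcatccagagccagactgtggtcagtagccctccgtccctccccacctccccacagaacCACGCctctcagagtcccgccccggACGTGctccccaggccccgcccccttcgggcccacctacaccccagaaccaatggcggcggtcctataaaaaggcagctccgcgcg
Hk2, chr6:82774405-82774704, minus strand: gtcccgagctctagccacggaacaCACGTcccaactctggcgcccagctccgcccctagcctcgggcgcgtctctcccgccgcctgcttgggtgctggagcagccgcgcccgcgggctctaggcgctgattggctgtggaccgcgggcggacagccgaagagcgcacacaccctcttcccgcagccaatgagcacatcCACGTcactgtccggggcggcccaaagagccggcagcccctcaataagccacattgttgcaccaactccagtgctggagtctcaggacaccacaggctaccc
Slc16a3, chr11:120948817-120949116, plus strand: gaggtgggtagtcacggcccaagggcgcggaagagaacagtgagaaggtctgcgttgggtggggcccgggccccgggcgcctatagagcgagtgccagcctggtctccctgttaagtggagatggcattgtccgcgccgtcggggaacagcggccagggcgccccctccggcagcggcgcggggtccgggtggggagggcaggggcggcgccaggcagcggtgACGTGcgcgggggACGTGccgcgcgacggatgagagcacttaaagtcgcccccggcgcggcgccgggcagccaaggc
Ero1l, listed as Ero1a, chr14:45318523-45318822, minus strand: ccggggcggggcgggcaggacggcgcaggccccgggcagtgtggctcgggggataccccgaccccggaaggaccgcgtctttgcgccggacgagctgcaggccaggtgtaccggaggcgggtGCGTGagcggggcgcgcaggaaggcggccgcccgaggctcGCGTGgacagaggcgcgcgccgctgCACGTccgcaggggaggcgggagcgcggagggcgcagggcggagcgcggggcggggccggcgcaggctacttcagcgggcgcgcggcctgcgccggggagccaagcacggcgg
Pdk1, chr2:71872974-71873273, plus strand: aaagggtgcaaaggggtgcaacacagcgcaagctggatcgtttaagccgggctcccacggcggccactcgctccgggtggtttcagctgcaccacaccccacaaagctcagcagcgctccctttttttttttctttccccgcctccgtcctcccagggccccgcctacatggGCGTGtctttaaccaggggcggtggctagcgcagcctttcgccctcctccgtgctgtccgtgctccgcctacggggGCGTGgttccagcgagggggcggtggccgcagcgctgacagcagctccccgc
Egln1, chr8:124949205-124949504, minus strand: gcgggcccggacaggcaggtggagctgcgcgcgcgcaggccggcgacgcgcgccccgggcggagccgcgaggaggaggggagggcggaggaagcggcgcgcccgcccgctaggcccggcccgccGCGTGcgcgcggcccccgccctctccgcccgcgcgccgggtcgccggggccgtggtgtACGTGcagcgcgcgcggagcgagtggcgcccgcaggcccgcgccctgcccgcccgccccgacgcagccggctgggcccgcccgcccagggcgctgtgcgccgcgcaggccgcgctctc
Ero1l held 3 cores and the other 5 windows held 2 each. The 2 cores of Slc16a3 lay 27 and 14 bases before the start, those of Slc2a1 61 and 36 bases before it. Over the members with a window, all but Ndrg1, 31 of 34 held at least 1 core in at least 1 of their windows, which is 91.2%, beside 46.7% of 27025 genes with a window. Counted per window, the share was 78.0% of 50 for the members and 43.8% of 32851 for all genes. The genes set beside the members were not limited to those expressed in these cells, and part of the members were listed as targets of HIF-1. Each core contains CG, and windows were not matched for base composition. The part of these in the difference was not tested. The E-box CACGTG, which contains a match on both strands and is bound by other factors as well, was in 6 of the 50 and in 7.15% of all windows, and in none of the 6 shown. A match describes letters and not binding, and no match says only that these letters are not in this window. The windows shown were chosen for holding a core. Gpi1, which also fell with LPS, held 0 cores in its window, a second window of Pdk1 held 0, and Aldoc held 3 and 1 in its windows.

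Slc2a1, the main glucose transporter of many cell types (GLUT1), had 523, 530.1 and 614 CPM in the LPS libraries, against 202, 158 and 144 CPM in solvent. The groups did not overlap, with a log2 fold change of 1.72 ± 0.18 (SE) and an adjusted p of 2.88e-10. With LPS and 1 mM melatonin it had 375, 338 and 201 CPM, all below the lowest LPS library, against 179, 175 and 231 CPM in 1 mM melatonin alone, whose range takes in replicate 3. It fell by 0.87 on the log2 scale against LPS (adjusted p = 0.000587) and its log2 fold change against 1 mM melatonin alone was 0.65 ± 0.17 (adjusted p = 0.0101; 0.78 and 0.0044 without the doubted replicate 3). Replicate 3, the library that stands apart, was the lowest, and without it the log2 fold change against LPS was -0.64 (adjusted p = 0.00907). At the 4 lower doses with LPS, the 12 libraries spanned 469 to 717 CPM and overlapped the LPS libraries.

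Slc16a3 (MCT4), a transporter that exports lactate, had 409, 478 and 395 CPM with LPS, against 313, 299 and 276 CPM in solvent. All 3 LPS libraries were above all solvent libraries, and it rose with a log2 fold change of 0.53 ± 0.14 (adjusted p = 0.00602), a call lost without LPS replicate 2, the highest (0.45, adjusted p = 0.0595). It had 271, 306 and 183 CPM with LPS and 1 mM melatonin and fell against LPS, with a log2 fold change of -0.75 ± 0.14 (adjusted p = 0.000302). Without replicate 3, the lowest, it was -0.57 (adjusted p = 0.00449), and a fit to the compared libraries alone did not call it (adjusted p = 0.0684). These levels overlapped those of 1 mM melatonin alone (210.2, 191 and 276 CPM), against which it was not called (adjusted p = 0.566; 0.227 without the doubted replicate 3). Slc16a1 (MCT1), the related transporter, averaged 138 ± 3.99 CPM with LPS and 1 mM melatonin and 122 ± 14.4 CPM with LPS (SD, n = 3 each), and was called in neither main comparison. Per length, in the deposited FPKM, Slc16a3 was the higher of the pair in every group, with 78.2 ± 8.17 FPKM beside 26.8 ± 3.18 FPKM for Slc16a1 in LPS.

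**Figure D2:**
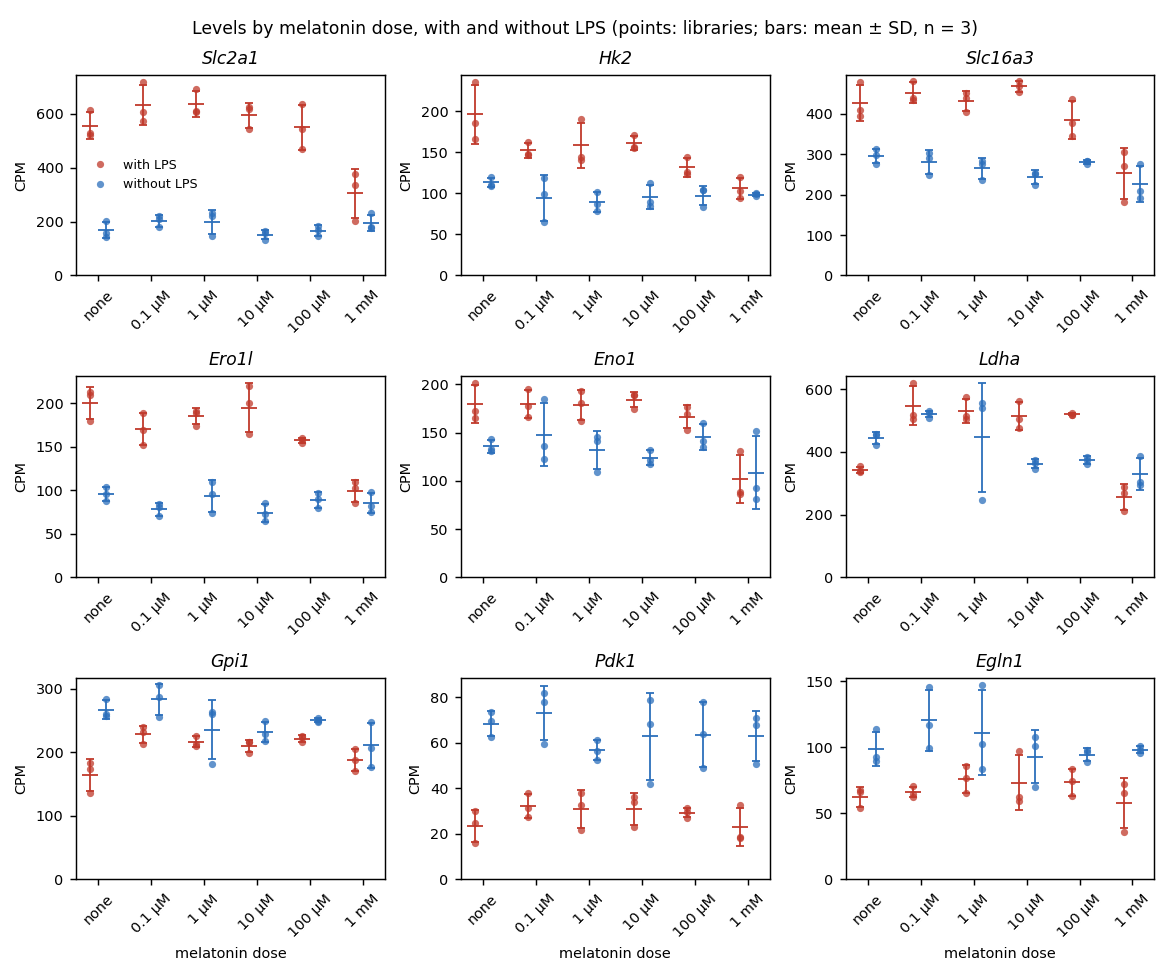
CPM (y axes, from 0) of 9 members by melatonin dose (x axes), with LPS in red and without LPS in blue. Points are libraries, and bars the mean ± SD of 3. Slc2a1, Hk2, Slc16a3, Ero1l and Eno1 are lower at 1 mM than at the other doses with LPS, Ldha is higher at 0.1 to 100 µM with LPS than at none or 1 mM, and Pdk1 is lower with LPS at every dose.

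Hexokinases trap glucose in the cell as glucose phosphate. Hk2, an inducible form that binds mitochondria, had 236, 167 and 186 CPM with LPS, against 120.1, 111 and 109 CPM in solvent, and rose by 0.79 ± 0.17 on the log2 scale (adjusted p = 0.000535). With LPS and 1 mM melatonin it had 94.9, 119.8 and 103 CPM, and the fold change against LPS was -0.89 ± 0.17 (adjusted p = 0.00037). These levels overlapped those of solvent, a pair that was not tested. Hk3, a form abundant in myeloid cells, had 20.2, 32.9 and 19.6 CPM with LPS, against 2.38, 21.4 and 5.99 CPM in solvent. Solvent replicate 2 lay within the LPS range, and the rise (1.29 ± 0.46, adjusted p = 0.0489) was lost under 8 of 15 alternatives, among them leaving out LPS replicate 1, 2 or 3 or solvent replicate 1 or 3. Hk1, the form most cells use, had 36.4 ± 11.2 CPM with LPS and 54.7 ± 8.61 CPM in solvent (SD, n = 3 each), with a log2 fold change of -0.59 that did not pass (adjusted p = 0.0904). Per length, Hk2 was the highest of the 3 in both groups, with 32.0 ± 5.86 FPKM in LPS and 18.7 ± 1.03 FPKM in solvent, followed by Hk3 in LPS (6.40 ± 1.99 FPKM) and by Hk1 in solvent (6.31 ± 1.00 FPKM).

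Gpi1, which converts glucose phosphate to fructose phosphate, had 136, 174 and 183 CPM with LPS, against 257, 284 and 259 CPM in solvent. Every LPS library was below every solvent library, and it fell with a log2 fold change of -0.70 ± 0.14 (adjusted p = 0.00017). LPS with 1 mM melatonin left it at 188, 204 and 169.6 CPM, which overlapped LPS (0.19 ± 0.14, adjusted p = 0.497).

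Phosphofructokinase commits sugar to glycolysis and is built from liver, muscle and platelet subunits. The platelet subunit Pfkp had 70.6, 101 and 93.4 CPM with LPS and 1 mM melatonin, against 137, 133 and 136 CPM with LPS. It fell there (-0.62 ± 0.16, adjusted p = 0.0105), a call lost under 4 of 16 alternatives. These were leaving out replicate 1 of LPS with 1 mM melatonin (adjusted p = 0.117), no scaling (adjusted p = 0.168), no filter, and the compared libraries alone. The LPS libraries and the solvent libraries (98.9, 94.7 and 111 CPM), which did not overlap, were not called apart (adjusted p = 0.0728). The liver subunit Pfkl had 16.5, 21.9 and 19.6 CPM with LPS and 1 mM melatonin, 41.7, 39.2 and 34.6 CPM with 1 mM melatonin alone, 34.7, 28.7 and 29.0 CPM with LPS and 14.8, 23.6 and 22.0 CPM in solvent. Its highest levels were thus in 1 mM melatonin alone and in LPS alone, and its lower level with both gave an interaction of -1.61 ± 0.40 on the log2 scale (adjusted p = 0.0195), lost under 6 of 22 alternatives. Against 1 mM melatonin alone, LPS with 1 mM melatonin was lower by a log2 fold change of -0.99 ± 0.28 (adjusted p = 0.0149). Without the doubted replicate 3 of 1 mM alone these were -1.67 (adjusted p = 0.0288) and -1.07 (adjusted p = 0.026). The muscle subunit Pfkm spanned 0.152 to 12.6 CPM in the libraries with LPS and 4.74 to 22.8 CPM in those without it, and was called in no comparison. Per length, Pfkp led in LPS with 9.83 ± 0.168 FPKM, followed by Pfkl with 4.49 ± 0.500 FPKM and Pfkm with 1.72 ± 1.60 FPKM.

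Pfkfb3 and Pfkfb4 make and degrade the sugar bisphosphate that activates phosphofructokinase. Pfkfb3 averaged 9.54 ± 1.84 CPM with LPS and 1 mM melatonin, 20.0 ± 6.84 CPM with LPS and 10.3 ± 5.75 CPM in solvent (SD, n = 3 each). The log2 fold changes of -1.06 against LPS and 0.94 for LPS against solvent did not pass (adjusted p = 0.111 and 0.111). Pfkfb4 spanned 0.300 to 19.5 CPM over the 36 libraries and was called in no comparison. Per length both were low, with 2.57 ± 0.882 FPKM for Pfkfb3 and 0.5995 ± 0.641 FPKM for Pfkfb4 in LPS.

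Aldolase cleaves the sugar bisphosphate that phosphofructokinase makes, which is not the activator above, and triosephosphate isomerase interconverts the products. Aldoc had 29.0, 22.4 and 21.0 CPM with LPS, against 61.5, 60.1 and 32.1 CPM in solvent, and fell (log2 fold change -1.09 ± 0.31, adjusted p = 0.0086), a call lost without solvent replicate 1 or 2. Aldoa, the main form here with 155 ± 18.7 FPKM beside 7.19 ± 1.28 FPKM for Aldoc in LPS, averaged 463 ± 55.7 CPM with LPS and 488 ± 27.2 CPM in solvent (SD, n = 3 each) and was not called (adjusted p = 0.831). A second gene identifier with the symbol Aldoa held 36 counts in all and was not tested. Aldoa was higher in LPS with 1 mM melatonin (457, 391 and 742 CPM) than in 1 mM melatonin alone (362, 351 and 430.3 CPM), with 0.47 ± 0.16 on the log2 scale (adjusted p = 0.046; 0.57 and 0.0321 without the doubted replicate 3 of 1 mM alone). The highest value is replicate 3 of LPS with 1 mM melatonin, and without that library Aldoa was at 0.15 (adjusted p = 0.621). Tpi1 averaged 350.0 ± 96.0 CPM with LPS and 1 mM melatonin, 407 ± 17.6 CPM with LPS and 511 ± 41.7 CPM in solvent, and was called in neither main comparison.

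The later steps of the pathway regain ATP and end in lactate. Eno1, the enolase of most cells, had 88.6, 86.0 and 131 CPM with LPS and 1 mM melatonin, against 172, 202 and 165 CPM with LPS. The groups did not overlap, and it fell (log2 fold change -0.82 ± 0.18, adjusted p = 0.00159), a call lost in the fit to the compared libraries alone (adjusted p = 0.0552). In 1 mM melatonin alone it had 80.9, 92.8 and 151 CPM, against which LPS with 1 mM melatonin was not called (log2 fold change -0.09, adjusted p = 0.856; 0.23 and 0.539 without the doubted replicate 3). Pgk1, which makes ATP, had 183, 194 and 203 CPM with LPS, against 137, 139.9 and 136 CPM in solvent. These did not overlap, but the call (0.49 ± 0.17, adjusted p = 0.0452) was lost under 11 of 15 alternatives, among them leaving out any of the 6 libraries. Pdk1, a kinase that shuts pyruvate dehydrogenase and so keeps pyruvate from the mitochondrion, had 29.9, 15.7 and 24.7 CPM with LPS, against 62.4, 73.3 and 69.4 CPM in solvent. It had the most negative called log2 fold change of the members in this comparison, -1.55 ± 0.27 (adjusted p = 1.81e-05). It had 18.4, 18.1 and 32.5 CPM with LPS and 1 mM melatonin, which overlapped LPS (-0.03, adjusted p = 0.985) and was below 1 mM melatonin alone (67.8, 50.5 and 71.0 CPM; -1.46 ± 0.27, adjusted p = 9.54e-05, and -1.37, adjusted p = 0.000871, without its doubted replicate 3). Over all doses of melatonin and none, Pdk1 spanned 15.7 to 38.0 CPM in the 18 libraries with LPS and 41.7 to 81.8 CPM in the 18 without it, with no overlap.

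Gapdh, Pgam1, Pkm, Ldha and the neuronal enolase Eno2 were called in neither main comparison on their own counts. Gapdh, the dehydrogenase that starts the later steps, averaged 83.6 ± 57.4 CPM with LPS and 1 mM melatonin, 68.0 ± 11.4 CPM with LPS and 63.0 ± 0.715 CPM in solvent. The mutase Pgam1 averaged 349 ± 114 CPM, 392.1 ± 30.4 CPM and 348 ± 7.30 CPM in these groups, and Eno2 averaged 15.8 ± 3.30 CPM, 26.6 ± 5.88 CPM and 14.5 ± 2.99 CPM. None of these 3 passed the test in either comparison. Pkm, the pyruvate kinase of most tissues, averaged 717 ± 146 CPM with LPS and 1 mM melatonin, 715 ± 13.6 CPM with LPS and 871 ± 139.6 CPM in solvent. Ldha, which makes lactate, averaged 257 ± 40.8 CPM, 343 ± 10.4 CPM and 444 ± 18.8 CPM in the same order (SD, n = 3 each), with no overlap between these 3 groups, although the log2 fold changes of -0.42 and -0.37 did not pass (adjusted p = 0.124 and 0.123). Per length, Eno1 had 32.5 ± 3.55 FPKM in LPS and Eno2 5.51 ± 1.21 FPKM, on Eno1's own counts alone.

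Among the regulators, Hif1a, the oxygen-labile subunit, had 82.1, 114 and 93.6 CPM with LPS, against 55.4, 79.9 and 69.8 CPM in solvent. The LPS libraries were all higher, but the log2 fold change of 0.50 ± 0.21 did not pass (adjusted p = 0.101). It had 68.5, 81.6 and 138 CPM with LPS and 1 mM melatonin, higher than in 1 mM melatonin alone (55.5, 53.5 and 65.2 CPM) by 0.72 ± 0.21 on the log2 scale (adjusted p = 0.0172; 0.81 and 0.0224 without the doubted replicate 3 of 1 mM alone). Without replicate 3 of LPS with 1 mM melatonin, the highest, that value was 0.37 (adjusted p = 0.345). Egln1, the prolyl hydroxylase that marks it in most cells, had 53.9, 67.5 and 66.0 CPM with LPS, against 114, 89.8 and 92.4 CPM in solvent, and fell (log2 fold change -0.66 ± 0.22, adjusted p = 0.0292). That call was lost without solvent replicate 1, LPS replicate 1 or LPS replicate 3 (adjusted p of 0.142, 0.145 and 0.0551). Egln1 had 65.3, 72.2 and 35.9 CPM with LPS and 1 mM melatonin and was below 1 mM melatonin alone (97.9, 95.9 and 101 CPM; -0.76 ± 0.22, adjusted p = 0.0167), a difference of -0.52 without replicate 3 of LPS with 1 mM melatonin (adjusted p = 0.18) and -0.74 without the doubted replicate 3 of 1 mM alone (adjusted p = 0.0442). Egln3, a further hydroxylase and HIF-1 target, was at 0 in the 3 LPS libraries, against 0, 2.20 and 2.40 CPM in solvent. That is at least 10.2-fold lower over the group, for counting error only, with 1 solvent library at 0 and an adjusted p of 0.128. Per length, Egln1 had 27.0 ± 3.67 FPKM and Egln3 0.565 ± 0.491 FPKM in solvent.

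Ero1l, an oxidase that forms disulfide bonds in the endoplasmic reticulum, had 179, 209 and 212 CPM with LPS, against 103, 95.2 and 87.6 CPM in solvent. It rose by 1.07 ± 0.16 on the log2 scale (adjusted p = 9.52e-07). With LPS and 1 mM melatonin it had 109, 85.2 and 102 CPM, all below the LPS libraries, and it fell (log2 fold change -1.02 ± 0.16, adjusted p = 9.45e-06). This level overlapped that of 1 mM melatonin alone (82.1, 75.3 and 97.6 CPM; adjusted p = 0.462, and 0.324 without its doubted replicate 3), and the interaction was -0.85 ± 0.22 (adjusted p = 0.0301). That call was lost under 10 of 22 alternatives, among them leaving out the doubted replicate 3 of 1 mM alone (-0.74, adjusted p = 0.0965) or both doubted libraries (adjusted p = 0.0522). P4ha1, a subunit of the enzyme that hydroxylates proline in collagen, had 129, 72.2 and 91.1 CPM with LPS, against 44.5, 52.8 and 63.2 CPM in solvent, and rose by 0.86 ± 0.22 (adjusted p = 0.0038). LPS replicate 1 was the highest, and without it the call was lost. P4ha1 had 79.7, 77.4 and 50.7 CPM with LPS and 1 mM melatonin, a log2 fold change of -0.49 against LPS that did not pass (adjusted p = 0.199). Its relative P4ha2 held counts in 4 of the 36 libraries, and per length P4ha1 had 23.1 ± 6.88 FPKM in LPS, where P4ha2 was listed at 0.

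Ndrg1, a stress-responsive gene used as a hypoxia marker, had 38.0, 34.5 and 34.9 CPM with LPS and 1 mM melatonin, 67.8, 45.7 and 82.0 CPM with LPS and 81.0, 115 and 80.6 CPM in solvent. It fell against LPS (log2 fold change -0.86 ± 0.24, adjusted p = 0.0149) and was below 1 mM melatonin alone (-0.72 ± 0.24, adjusted p = 0.0426; not called without the doubted replicate 3, -0.46, adjusted p = 0.326), but LPS against solvent did not pass (adjusted p = 0.145). The first of these calls was lost under 4 of 16 alternatives. These were leaving out LPS replicate 3 or replicate 2 of LPS with 1 mM melatonin, no scaling (adjusted p = 0.084), and the compared libraries alone. Vegfa, the angiogenic growth factor, averaged 77.5 ± 12.9 CPM with LPS and 1 mM melatonin, 108 ± 27.2 CPM with LPS and 80.9 ± 12.0 CPM in solvent, with log2 fold changes of -0.48 and 0.42 that did not pass (adjusted p = 0.151 and 0.155). Adm, a vasodilator peptide, had 1.07, 7.05 and 2.20 CPM with LPS and 1 mM melatonin and 0 in all LPS libraries. That is at least 22.9-fold higher over the group, at low counts, and it did not pass (adjusted p = 0.0628). In 1 mM melatonin alone Adm had 4.29, 4.37 and 2.16 CPM. The mitophagy receptor Bnip3, Ankrd37 and the histone demethylase Kdm3a were not called in any comparison, and averaged 13.0 ± 5.68, 5.73 ± 3.60 and 38.1 ± 2.41 CPM with LPS and 1 mM melatonin and 9.46 ± 4.62, 13.2 ± 4.48 and 45.6 ± 5.02 CPM with LPS (SD, n = 3 each).

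**Figure D3:**
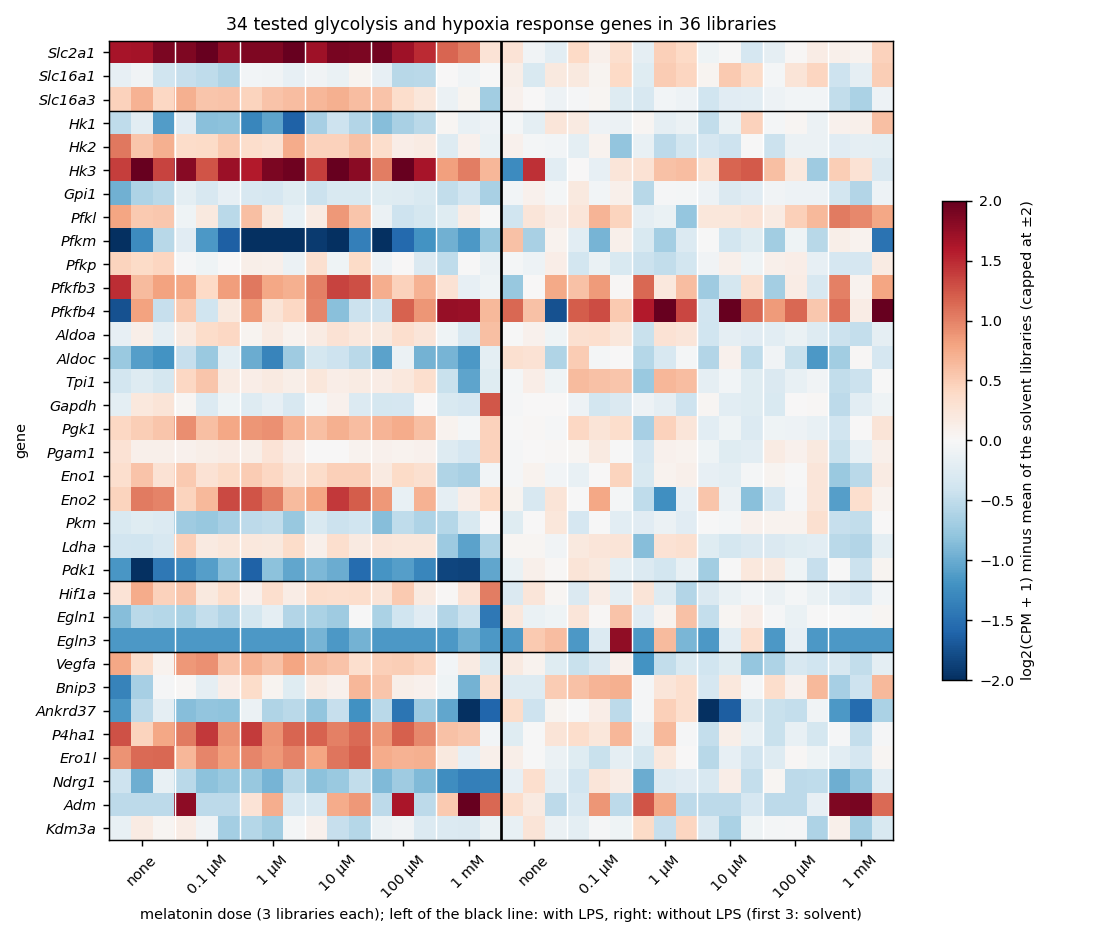
Log2(CPM + 1) of the 34 tested members (rows, ordered as transporters, glycolysis with Pdk1, regulators and targets) in 36 libraries (columns, 3 per melatonin dose), as the difference from the mean of the solvent libraries, with the colour scale capped at 2 on either side. Libraries with LPS are left of the black line and those without it right of it. Slc2a1 is red in the LPS libraries and paler at 1 mM, Pdk1 is blue at every dose with LPS, and Tpi1 and Ldha are blue in replicate 1 of 1 µM melatonin alone but not in its replicates 2 and 3.

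Whether LPS acted differently with and without 1 mM melatonin was tested as an interaction. Of the 34 members 3 were called, all lower, where 1.69% of all genes were called, 1.06% lower and 0.63% higher. They were Slc2a1 (-1.08 ± 0.25, adjusted p = 0.00985), Pfkl and Ero1l, of which Slc2a1 was lost under 1 of 22 alternatives, the fit to the compared libraries alone. Without the doubted replicate 3 of 1 mM alone, Slc2a1 was at -0.94 (adjusted p = 0.0351), and 2 members, Slc2a1 and Pfkl, were called, where 1.6% of all genes were. For Hk2 and Slc16a3 the interactions of -0.69 ± 0.24 and -0.36 ± 0.20 did not pass (adjusted p = 0.172 and 0.478). LPS with 1 mM melatonin against 1 mM melatonin alone called 3 members higher (Slc2a1, Aldoa, Hif1a) and 4 lower (Pfkl, Pdk1, Egln1, Ndrg1), where 9.62% of all genes were called, 4.87% higher and 4.75% lower. Pdk1 and Slc2a1 kept the direction they had for LPS against solvent, with called log2 fold changes of -1.46 and 0.65. Without replicate 3 of LPS with 1 mM melatonin, 3 members were called, Pdk1 (-1.79), Slc2a1 (0.87) and P4ha1 (0.73, adjusted p = 0.0424), where 7.19% of all genes were. Without the doubted replicate 3 of 1 mM alone, 6 of the 7 were called, all but Ndrg1, where 7.44% of all genes were.

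Melatonin alone called 0 members at any of the 5 doses, where 0.341%, 0.147%, 0.0824%, 0.0824% and 0.418% of all genes were called at 0.1, 1, 10, 100 and 1000 µM. At an unadjusted p under 0.05 the counts of members were 1, 3, 3, 1 and 9 of 34, where 9.3%, 8.29%, 6.82%, 5.97% and 10.8% of all genes passed. DESeq2 called 0, 0, 0, 0 and 1 member, where it called 1.74%, 0.536%, 0.278%, 0.189% and 1.16% of all genes. The median log2 fold change of the members at 1 mM was -0.22, beside 0 for all genes tested, and 7 of 34 lay above 0. Ldha had 304, 296 and 387 CPM at 1 mM, against 456, 454 and 423 CPM in solvent (-0.43 ± 0.16, adjusted p = 0.345). All 3 lay below solvent, and the doubted replicate 3 was the highest. Leaving out both doubted libraries, which keeps 2 at 1 mM, 6 of 34 members fell, where 2.64% of all genes were called in that fit. Their log2 fold changes were -0.64 for Eno1, -0.48 for Gpi1, -0.57 for Ldha, -0.49 for Pkm, -0.56 for Slc16a3 and -0.91 for Ndrg1, with adjusted p from 0.00306 (Ldha) to 0.0387 (Gpi1). Leaving out only the doubted replicate 3 gave 3 calls, Eno1, Slc16a3 and Ndrg1, where 1.88% of all genes were called.

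The doubted library at 1 µM melatonin alone was visible in single members. Tpi1 had 306, 809 and 783 CPM in replicates 1, 2 and 3, against 494, 559 and 481 CPM in solvent. Ldha had 247, 540.0 and 555 CPM, against 456, 454 and 423 CPM in solvent. In both, replicate 1 lay below every solvent library and replicates 2 and 3 above them. Without replicate 1, Tpi1 was higher at 1 µM than in solvent (0.64, adjusted p = 0.0356). At 0.1 µM, Tpi1 had 794, 764 and 751 CPM, above all solvent libraries, with a log2 fold change of 0.59 ± 0.19 that did not pass (adjusted p = 0.225) unless both doubted libraries were left out of the fit (adjusted p = 0.0079).

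Below 1 mM, melatonin with LPS called members at 1 dose. At 0.1 µM, 2 members rose against LPS, Tpi1 and Ldha, where 1.36% of all genes were called, 0.653% higher and 0.706% lower. At 1, 10 and 100 µM 0 members were called, where 0.612%, 0.371% and 1.18% of all genes were, and 8, 5 and 11 members passed at an unadjusted p under 0.05, where 11.7%, 9.81% and 12.4% of all genes did. DESeq2 called 1, 1 and 5 members at these doses, where it called 1.87%, 1.06% and 2.91% of all genes. Ldha had 339, 335 and 355 CPM with LPS and no melatonin, 619.9, 505 and 519 CPM at 0.1 µM, 514, 506 and 575 CPM at 1 µM, 475, 562 and 506 CPM at 10 µM and 525, 519 and 518 CPM at 100 µM with LPS. All 12 libraries with 0.1 to 100 µM were above the LPS libraries, and the log2 fold changes against LPS at these doses, low to high, were 0.68, 0.63, 0.58 and 0.60, with adjusted p of 0.0221, 0.0585, 0.117 and 0.054. Higher levels were not limited to LPS. At 0.1 µM melatonin alone Ldha had 510 to 531 CPM, above solvent (423 to 456 CPM) but not called, as did replicates 2 and 3 of 1 µM alone. At 10 and 100 µM alone it lay below solvent, at 347 to 376 and 362 to 385 CPM. Tpi1 had 684, 752 and 573 CPM at 0.1 µM, against 395, 427 and 399 CPM in LPS (0.72 ± 0.19, adjusted p = 0.046), and its libraries at 1 to 100 µM lay within the range of 555 to 752 CPM of all 12. With both doubted libraries left out, Tpi1 and Ldha were called at all 4 doses, where 1.97%, 1.3%, 0.747% and 1.92% of all genes were called at 0.1, 1, 10 and 100 µM. Leaving out any LPS library, or replicate 1 or 2 of the 0.1 µM group, ended both calls at 0.1 µM. These 4 comparisons share the LPS libraries.

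A slope of the members over log10 dose from 0.1 to 100 µM with LPS was called for 0 of 34 members, where 0.0177% of all genes were called, with 0 at an unadjusted p under 0.05 (6.32% of all genes) and 0 by DESeq2 (0.23% of all genes). Between the ends of the dose range, 1 mM against 0.1 µM melatonin, both with LPS, called 1 member higher and 10 lower, where 8.11% of all genes were called, 2.83% higher and 5.28% lower. The 10 were Slc2a1 (-1.05), Hk2 (-0.52), Tpi1 (-0.94), Pgk1 (-0.60), Eno1 (-0.82), Ldha (-1.10), Slc16a3 (-0.84), Vegfa (-0.85), P4ha1 (-0.76) and Ero1l (-0.78), all as log2 fold changes. Ldha was furthest apart, with 269, 211 and 289.6 CPM at 1 mM, against 619.9, 505 and 519 CPM at 0.1 µM (adjusted p = 7.1e-06). Pkm was the member called higher (0.44 ± 0.14, adjusted p = 0.0333), and was not called without replicate 3 of the 1 mM group (adjusted p = 0.251).

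Of the members, 10 have copies elsewhere in the genome that are at least 90% identical, so a read of the gene may be counted on a copy and the reverse. Levels and changes of these 10 on their own counts are therefore uncertain. For Gapdh 1.40% of the reads counted on the gene and its copies were on Gapdh itself, for Eno1 6.37%, for Pkm 12.8%, for Pgk1 20.5%, for Gpi1 44.5% and for Bnip3 49.8%. The shares for Aldoa, Ldha, Pgam1 and Tpi1 were 73.4%, 80.8%, 84.7% and 96.9%. Most reads of the Pkm family were on Gm6560, a processed pseudogene, and those of the Eno1 family on Eno1b and Gm4735. The low CPM of Gapdh, an abundant enzyme in most cells, is thus the level on 1 of many near-identical copies. FPKM of these 10 genes, computed by the authors from the same counts, carry the same limit.

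The shares moved between groups. Pgk1 kept 25.1% to 33.4% of its family's reads in the 12 libraries of LPS with 0.1 to 100 µM melatonin. It kept 22.9, 16.7 and 33.6% in LPS with 1 mM melatonin, 17.6, 15.4 and 17.2% in LPS and 15.5, 17.1 and 13.4% in solvent. Ldha kept 82.5% to 90.1% in those 12, against 72.2% to 77.8% in LPS and solvent. The shift was not limited to LPS. In 0.1 µM melatonin alone Ldha kept 81.2% to 86.5% and Pgk1 18.4% to 23.3%, and in 1 µM alone Ldha kept 67.6, 84.6 and 83.4%, the lowest in the doubted replicate 1, and Pgk1 12.8, 21.4 and 19.3%. Replicate 3 of LPS with 1 mM melatonin stood apart again, with 5.54% for Gapdh, 12.2% for Eno1 and 33.2% for Pkm, above the highest of the other 35 libraries (1.98%, 7.71% and 15.2%). Whether these shifts came from the reads or from how they were assigned was not tested.

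**Figure D4:**
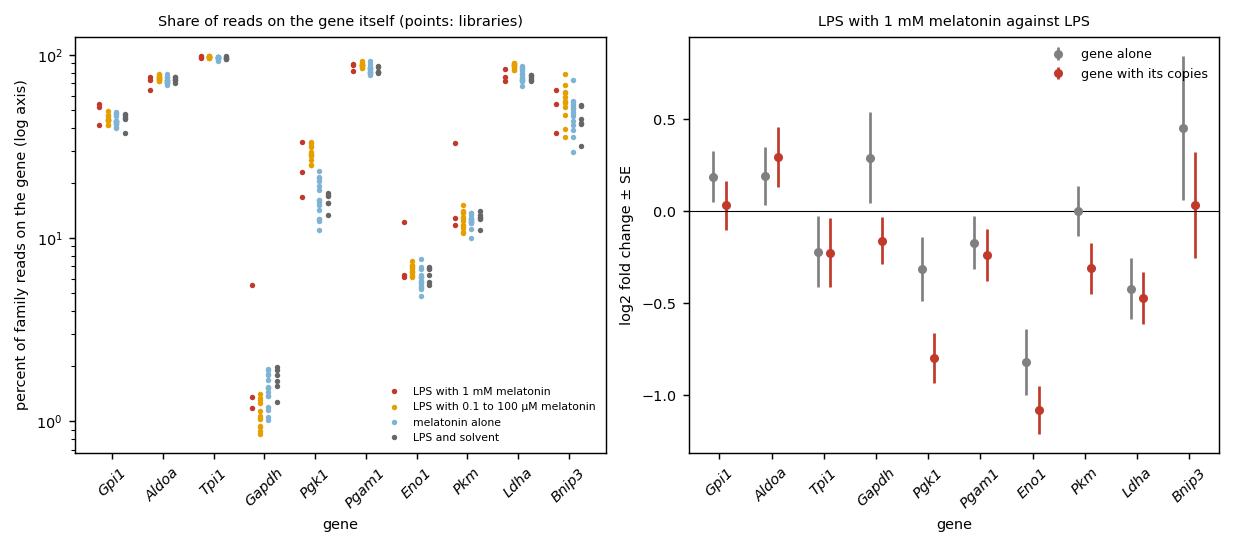
On the left, the percentage of reads of each of 10 families of near-identical copies that was counted on the member itself (y axis, log scale; points are libraries, coloured by group). On the right, log2 fold changes ± SE of LPS with 1 mM melatonin against LPS for the gene alone (grey) and for the gene summed with its copies (red). Gapdh lies near 1%, Pgk1 is higher in LPS with 0.1 to 100 µM melatonin than in LPS and solvent, and Eno1 and Pgk1 are lower on the right once the copies are summed.

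Summing each member with its copies was an alternative added after the data were seen. For LPS with 1 mM melatonin against LPS it called 9 members, where 7.57% of all genes were called. The Eno1, Pgk1 and Ldha families were among them. The Eno1 family had 1442, 1377 and 1079 CPM with LPS and 1 mM melatonin, against 2508, 2894 and 2855 CPM with LPS, and fell (log2 fold change -1.08 ± 0.13, adjusted p = 8.86e-08). The Pgk1 family had 632, 804 and 565 CPM, against 1045, 1259 and 1182 CPM with LPS, and fell (-0.80 ± 0.14, adjusted p = 5.87e-05). The Ldha family had 322, 294 and 382 CPM, against 449, 459.7 and 479 CPM with LPS, and fell (-0.47 ± 0.14, adjusted p = 0.0297). In these 3 families no library with 1 mM melatonin overlapped LPS, but the share of all genes that separate likewise was not counted. Without replicate 3 the values were -0.97 ± 0.13, -0.69 ± 0.14 and -0.59 ± 0.15, with adjusted p of 7.13e-07, 0.000518 and 0.00723, and the Pgam1 family passed as well (-0.51 ± 0.13, adjusted p = 0.00728). The Gapdh family did not pass with all libraries (-0.16 ± 0.13, adjusted p = 0.542). Without replicate 3, 10 members were called, where 5.71% of all genes were. The interaction of LPS and 1 mM melatonin for the Eno1 family was -0.88 ± 0.18 (adjusted p = 0.00426), a fit not repeated without the doubted libraries. With summed counts, 4 members were called for the interaction, where 1.66% of all genes were.

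For LPS against solvent, the summed Gpi1 family fell (log2 fold change -0.63 ± 0.13, adjusted p = 0.000432), as did the Pkm family (-0.39 ± 0.14, adjusted p = 0.0483), and the rise of Pgk1 was lost (0.35 ± 0.14, adjusted p = 0.0738). The Pkm family had 5454, 5193 and 5504 CPM with LPS, against 6594, 6861 and 7565 CPM in solvent, with no overlap. With summed counts, LPS against solvent called 11 members, where 16.5% of all genes were called. LPS with 0.1 µM melatonin against LPS called 2, where 1.38% were. For LPS with 0.1 µM melatonin against LPS, the Tpi1 family kept its rise (0.71 ± 0.19, adjusted p = 0.041), Ldha lost it (0.44 ± 0.14, adjusted p = 0.112), and the Pgk1 family was lower (-0.55 ± 0.14, adjusted p = 0.0254), opposite in sign to Pgk1 alone (0.28).

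Neighbouring pathways were read from 5 further lists of genes that are no members. LPS against solvent called 1 gene higher and 1 lower of 18 other glycolysis genes. Of all genes it called 16.5%, 8.4% higher and 8.09% lower, the share to set beside each list. Adpgk, a glucokinase that uses ADP, rose (63.4 ± 14.8 CPM with LPS and 32.4 ± 7.79 CPM in solvent; 0.97 ± 0.23, adjusted p = 0.00178). Of 10 genes of pyruvate dehydrogenase and its kinases, 1 rose and 1 fell. Dld, a subunit of the enzyme complex, rose (1.19 ± 0.18, adjusted p = 1.56e-06), opposite in sign to the inhibiting kinase Pdk1. No call fell on 9 other regulators of HIF, and 6 of 36 other hypoxia targets rose and 7 fell, among them the taurine transporter Slc6a6 (-0.71 ± 0.14, adjusted p = 9.01e-05). Of 9 genes of the pentose phosphate pathway, which branches off after hexokinase and makes NADPH, 2 rose and 2 fell. Its first enzyme G6pdx averaged 277 ± 22.9 CPM with LPS and 128 ± 21.1 CPM in solvent (1.11 ± 0.14, adjusted p = 3.37e-08), and Rpia averaged 51.9 ± 11.0 CPM with LPS and 109.9 ± 7.53 CPM in solvent (-1.08 ± 0.19, adjusted p = 2.38e-05; SD, n = 3 each). LPS with 1 mM melatonin against LPS called 7.55% of all genes, 2.84% higher and 4.71% lower. It called 0 of the 18 and 0 of the 10, 1 of the 9 pentose phosphate genes (G6pdx, lower, -0.68 ± 0.14, adjusted p = 0.000728) and 1 of the 9 HIF regulators. That regulator, Cited2, competes with HIF for its coactivator. It averaged 692 ± 118 CPM with LPS and 1 mM melatonin and 339 ± 36.8 CPM with LPS (SD, n = 3 each), and rose by 1.03 ± 0.15 (adjusted p = 3.89e-06). Of the 36 other hypoxia targets 3 rose and 6 fell in that comparison, the vasoconstrictor peptide Edn1 most (5.25 ± 2.26 CPM with LPS and 1 mM melatonin and 123 ± 7.99 CPM with LPS; -4.53 ± 0.54, adjusted p = 9.93e-08), while Mxi1 rose (1.24 ± 0.27, adjusted p = 0.00152).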

How the data were processed

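Total RNA of 36 libraries was extracted with Trizol and made into Illumina TruSeq libraries, per the labels' protocols. Per the submitters' processing notes, the authors used cutadapt, featureCounts and the mm10 build. Versions, aligner, annotation and strand setting are not given in the sources used here, so antisense and overlapping genes cannot be told apart. The deposited count table holds raw whole-number counts per gene, and the authors' second table FPKM with symbols, per the file headers. FPKM were used only to compare levels between genes.

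Counts were fitted with edgeR 4.0.16 (R 4.3.3, limma 3.58.1): filterByExpr, TMM scaling (factors 0.914 to 1.19), 1 mean per group over all 36 libraries, quasi-likelihood tests, and Benjamini-Hochberg adjustment over 16988 genes per contrast at 0.05. The fit was also run on simulated data, where only well-counted genes were changed, by set folds and in the LPS group. Its outcome is not given here, and it does not cover low members or smaller changes. SE is the absolute log2 fold change over the square root of F. Copies are GENCODE M21 transcripts with at least 90% identity over at least 200 bases and 50% of the copy (53360 of 53465 identifiers, 99.8%, are in M21). DESeq2 1.42.0, 2 other scalings, no filter, a replicate block, counts with pseudogenes, the compared libraries alone, and leaving out libraries were alternatives. Adding coding copies, alone or without replicate 3 of LPS with 1 mM melatonin, was chosen after seeing the data. The members, the other lists and the doubted libraries were chosen with earlier results of these data known. Named in full were members called in the 2 main comparisons or their interaction, averaging 5 CPM or more in either group, the others by a value or range.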

Additional observations from a re-analysis of the deposited data

Results flagged for a closer look

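The interaction test of LPS and 1 mM melatonin in edgeR called 3 of 34 members, all lower. Of all genes it called 1.69%, 1.06% lower and 0.63% higher. Of 22 alternatives, Slc2a1 was lost under 1, Pfkl under 6 and Ero1l under 10, and the fit to the compared libraries alone called 0 members. The interaction was -1.08 on the log2 scale for Slc2a1 (adjusted p = 0.00985), -1.61 for Pfkl (adjusted p = 0.0195) and -0.85 for Ero1l (adjusted p = 0.0301), each with 3 libraries in 4 groups. Without the doubted replicate 3 of 1 mM melatonin alone they were -0.94, -1.67 and -0.74 (adjusted p = 0.0351, 0.0288 and 0.0965), so Ero1l was no longer called. For Slc2a1 the log2 fold change for LPS was 0.65 with 1 mM melatonin and 1.72 without it, for Ero1l 0.22 and 1.07, and for Pfkl -0.99 and 0.61, opposite in sign, where LPS without melatonin was not called (adjusted p = 0.14). Pfkl is a low gene, at 11.1 to 41.7 CPM over all libraries.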

How the results depend on the processing

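Slc2a1, Hk2, Gpi1, Pdk1 and Ero1l for LPS against solvent (15 alternatives), and Slc2a1, Hk2 and Ero1l for LPS with 1 mM melatonin against LPS (16), stayed past the threshold with the same direction in every alternative run. No named member reversed. Numbers below count members called. The share of all genes called differs between these fits too, so a changed count alone is no result about the members. Percentages in brackets give that share for part of the fits. For the others, the replicate block among them, it is not given here, so those counts lack the share to set them beside. For LPS against solvent (11, 16.5%), leaving out 1 library gave 7 to 10, and all 15 alternatives spanned 7 to 15. For LPS with 1 mM melatonin against LPS (7, 7.55%), the compared libraries alone gave 3, and leaving out 1 library 6 to 8. All 16 alternatives spanned 3 to 10. For LPS with 1 mM melatonin against 1 mM melatonin alone (7, 9.62%), the compared libraries alone gave 1, and leaving out 1 library 3 to 6. Over all 16 alternatives the span was 1 to 8. For LPS with 1 mM against 0.1 µM melatonin (11, 8.11%), the compared libraries alone gave 6, and leaving out 1 library 8 to 10. All 16 alternatives spanned 6 to 13. For the interaction (3, 1.69%), no filter gave 1, the compared libraries alone 0, and leaving out 1 library 2 to 3. Over all 22 alternatives the span was 0 to 4. For melatonin alone at 1 mM (0, 0.418%), DESeq2 gave 1 (1.16%), leaving out both doubted libraries 6 (2.64%), and leaving out 1 library 0 to 3. At 1 µM alone (0, 0.147%), leaving out both doubted libraries gave 1 (0.501%), and leaving out 1 library 0 to 1. At 0.1 µM alone (0, 0.341%), no filter, leaving out both doubted libraries (0.845%) and the compared libraries alone gave 1 each.

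For LPS with 100 µM melatonin against LPS (0, 1.18%), DESeq2 gave 5 (2.91%) and leaving out both doubted libraries 4 (1.92%). All copies added gave 1 (1.19%), upper-quartile scaling 1, no scaling 1, no filter 2, pseudogene counts added 1 and the compared libraries alone 6. At 10 µM with LPS (0, 0.371%), DESeq2 gave 1 (1.06%), no filter 1, leaving out both doubted libraries 2 (0.747%) and the compared libraries alone 2. At 1 µM with LPS (0, 0.612%), DESeq2 (1.87%), no scaling, no filter, pseudogene counts and all copies (0.585%) gave 1 each. Leaving out both doubted libraries (1.3%) and the compared libraries alone gave 2 each there. At 0.1 µM with LPS (2, 1.36%), DESeq2 gave 4 (3.04%), leaving out both doubted libraries 4 (1.97%), the compared libraries alone 5, and leaving out 1 library 0 to 2. The cause of these moves was not tested, except that the compared libraries alone are fewer samples.

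The groups share replicate numbers, but same-numbered libraries did not deviate together over all genes (median r -0.00139, range -0.0409 to 0.0503, with 0 of 198 pairs above 0.1). The main fit therefore used no block. Since the labels do not say how replicates were made, this cannot exclude that same-numbered samples were handled together. With the replicate block, 11 members were called for LPS against solvent, 7 for LPS with 1 mM melatonin against LPS, 6 for LPS with 1 mM melatonin against 1 mM melatonin alone, 10 for LPS with 1 mM against 0.1 µM melatonin, 3 for the interaction, 2 for LPS with 0.1 µM melatonin against LPS, and 0 elsewhere. The share of all genes called with the block is not given here, so these counts are no result about the members. With 3 libraries a group and 4203313 to 7590271 counts each, low members such as Pfkm, Pfkfb4, Egln3, Adm and P4ha2 are limited by depth. For the 10 members with near-identical copies, the level on the gene itself depends on how reads were assigned.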
